A study of Mus musculus with 2 samples.

Results

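The genes of 6 proteins that build intermediate filaments, the simple keratins Krt8, Krt18 and Krt19, the muscle filament proteins desmin (Des) and nestin (Nes), and lamin A/C (Lmna), were followed in gastrocnemius muscle, a calf muscle, after loss of its nerve supply. These 6 genes, of 21595 gene symbols on the array, were picked by name with their results already known, and 9 of the array's 41174 probes report them. All 9 probes were well above background and unsaturated on both arrays. The denervated sample was RNA pooled from 6 male C57BL/6 mice, denervated at 7 weeks of age and sampled at 9 weeks, 14 days later. The control sample was RNA pooled from 6 male C57BL/6 mice, also 9 weeks old. One label calls the control a sham and another only a control, so whether those mice had surgery is unclear. Each pool was hybridised to 1 array, so nothing below has a replicate check or a p-value. Every difference describes these 2 pools, and the spread between mice is unknown.

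Intermediate filaments are rope-like polymers that give cells and nuclei mechanical strength. Keratins form them only as pairs of an acidic type I and a basic type II chain: Krt8 is a type II chain, and Krt18 and Krt19 are its type I partners in simple epithelia such as gut and liver. Desmin is the main intermediate filament of adult muscle fibres and ties neighbouring Z-discs to each other and to the cell membrane. Nestin is abundant in developing and regenerating fibres and in adult muscle is kept mainly at the neuromuscular and myotendinous junctions. Lamins A and C, both made from Lmna by alternative splicing, line the inside of the nuclear envelope.

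The bases just upstream of the annotated start are shown for the keratin pair, which had the largest differences of the 6 genes, and for Des, the muscle filament set beside them. The sequences are from RefSeq on GRCm38.p6, 250 bases each, read along the gene's strand, 5′ to 3′, with the E-box CANNTG, the sequence bound by myogenic and other helix-loop-helix factors, in capitals. Krt18 is at chr15:102027966-102028215 on the plus strand, Krt8 at chr15:102004343-102004592 on the minus strand and Des at chr1:75360042-75360291 on the plus strand.
Krt18: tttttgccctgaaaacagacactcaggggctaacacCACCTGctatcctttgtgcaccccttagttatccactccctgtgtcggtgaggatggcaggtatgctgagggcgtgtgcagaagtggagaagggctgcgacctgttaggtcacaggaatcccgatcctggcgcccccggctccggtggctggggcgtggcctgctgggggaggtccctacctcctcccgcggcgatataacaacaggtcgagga
Krt8: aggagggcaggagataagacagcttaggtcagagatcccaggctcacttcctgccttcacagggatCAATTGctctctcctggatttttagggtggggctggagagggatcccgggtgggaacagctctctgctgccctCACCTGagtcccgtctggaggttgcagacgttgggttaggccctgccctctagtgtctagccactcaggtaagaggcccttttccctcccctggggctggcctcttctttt
Des: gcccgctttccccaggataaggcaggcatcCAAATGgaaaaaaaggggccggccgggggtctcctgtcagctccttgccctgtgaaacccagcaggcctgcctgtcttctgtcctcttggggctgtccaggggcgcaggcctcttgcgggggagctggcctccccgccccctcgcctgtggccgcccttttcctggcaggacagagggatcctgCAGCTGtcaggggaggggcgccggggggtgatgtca

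Krt8 and Krt18 are neighbours transcribed in opposite directions. The Krt18 sequence held 1 E-box, beginning 214 bases before the annotated start. The Krt8 sequence held 2, beginning 184 and 111 bases before it, and the Des sequence held 2, at 220 and 36 bases. An E-box was found in 66.2% of all 32851 sequences of the same length, so a match in these windows is common. The Sp1-type GC box GGGCGG, searched on both strands and present in 32.7% of all sequences, was found at 2 positions in the Des sequence, 87 and 69 bases before the start, and in neither keratin sequence. Of the other members, Nes held 2 GC boxes and no E-box, and 1 of the 2 Lmna sequences held a GC box, with no E-box in either. TATAAA, in 12.4% of all sequences, and the AP-1 site TGANTCA, in 6.75%, were found in none of the 6 windows of the 5 members listed. Matches of different motifs did not overlap. A match is a description of the letters and not of a bound site.

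The signal of a probe is given as the scanner software's processed intensity, in arbitrary units and unscaled. Summed signals of a list add these unscaled values, so the sums of the 2 arrays are not on a common scale. Because the array-wide 75th percentile was 1063 on the denervated array and 788 on the control array, each signal was divided by its own array's percentile before the 2 were compared. Log2 differences are denervated minus control on that scale, and the value after ± is the software's own technical error. Scaled on spike-in controls, or not scaled, the median of all genes moved up by 0.40 and 0.43. A difference given here as slightly below 0 can thus lie above 0 on those scales. One slightly past 2-fold lower can lie within 2-fold, and one slightly short of 2-fold higher can lie past it. The share of probes well above background was 68.4% on the denervated array and 70.9% on the control array. Both samples carried the markers of skeletal muscle fibres. The list holds 8, among them Acta1, Ckm, Mylpf and Myh4. All 8 were measured, with signals of 58141 to 680177 on the denervated array and 109734 to 582258 on the control array.

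Krt18, Krt8 and Lmna were higher in denervated muscle by 2-fold or more, while Des, Nes and Krt19 stayed within 2-fold. Of the 6 genes, 3 were higher by 2-fold or more and 0 lower by as much. Among the 15433 genes measured on both arrays, 6.98% were that much higher and 8.52% that much lower. Past 16-fold higher were 2 of the 6 genes, beside 0.24% of all measured genes, and 0 were past 16-fold lower, beside 0.11%. The median difference of the 6 genes was 1.19, beside -0.11 for all measured genes. The genes were chosen with these differences known, so the counts describe the choice and carry no further weight. At the 2-fold line, Lmna at 1.99 was the member nearest above it and Nes at 0.40 the member nearest below it.

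**Figure D1:**
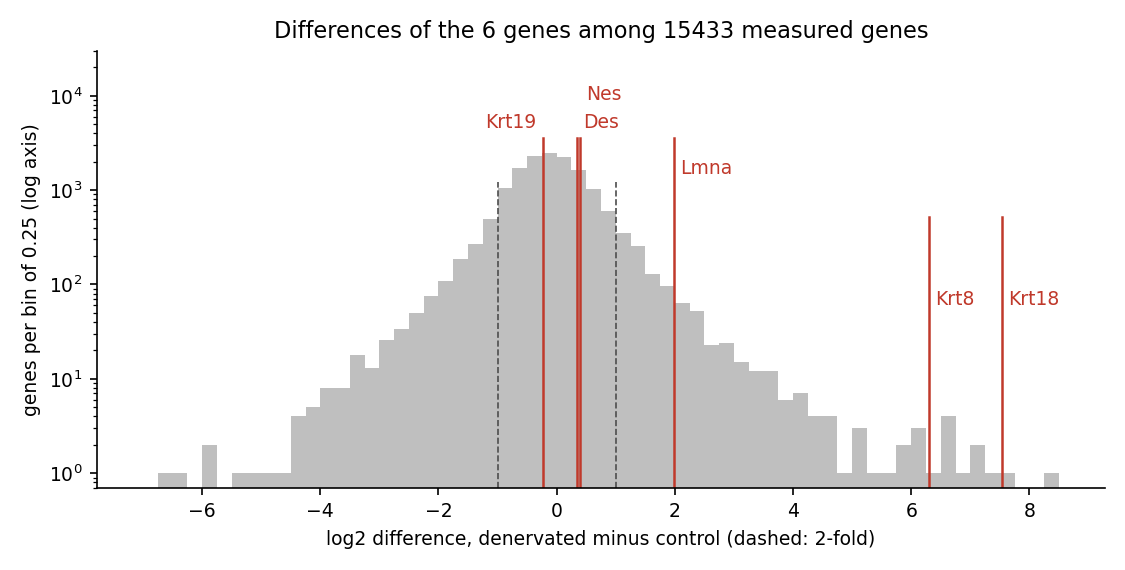
Number of genes (log axis) by log2 difference, denervated minus control, for the 15433 genes measured on both arrays, with dashed lines at 2-fold and red lines at the 6 genes. Krt18 and Krt8 lie far to the right at 7.54 and 6.31 and Lmna at 1.99, while Nes, Des and Krt19 lie inside the dashed lines.

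The acidic keratin Krt18 had the second highest difference of all measured genes. Its signal was 76156 on the denervated array, against 303 on the control array. That is a difference of 7.54 ± 0.20, or 186-fold, and 1 probe reports it (A_51_P324814, NM_010664, mm8 chr15:101859944-101860003, plus strand). The control signal, although low, was well above the lowest signal counted as above background there, 14.5.

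Its basic partner Krt8 was also far higher in denervated muscle and ranked 11 of 15433. One Krt8 probe (A_51_P242400, NM_031170, mm8 chr15:101824817-101824876, minus strand) had a signal of 5096 on the denervated array, against 47.7 on the control array. The difference was 6.31 ± 0.23, or 79.1-fold. The other Krt8 probe (A_51_P242399, mm8 chr15:101824949-101825008) gave 3701 on the denervated array, against 33.6 on the control array, a difference of 6.35 ± 0.25. The 2 probes thus differed from each other by less than their technical error. Both control signals were within 4 times the lowest signal counted as above background, so the value of Krt8 rests on a dim control signal. With another background correction (normexp) its log2 difference was 4.85. A pseudogene, Krt8-ps, is annotated on chromosome 7, and a transcript close in sequence could add to either probe.

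Krt19, the other acidic chain that can pair with Krt8, showed no such difference. Its signal was 113 on the denervated array, against 98.7 on the control array, a difference of -0.24 ± 0.22 (A_51_P356642, NM_008471, mm8 chr11:99957168-99957227, minus strand). Of all measured genes, 58.0% had a higher difference. Its sign depended on the scaling: it was 0.16 when the arrays were scaled on spike-in controls and 0.19 with no scaling. Of the type I partners of Krt8 in this set, Krt18 alone was past 2-fold.

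**Figure D2:**
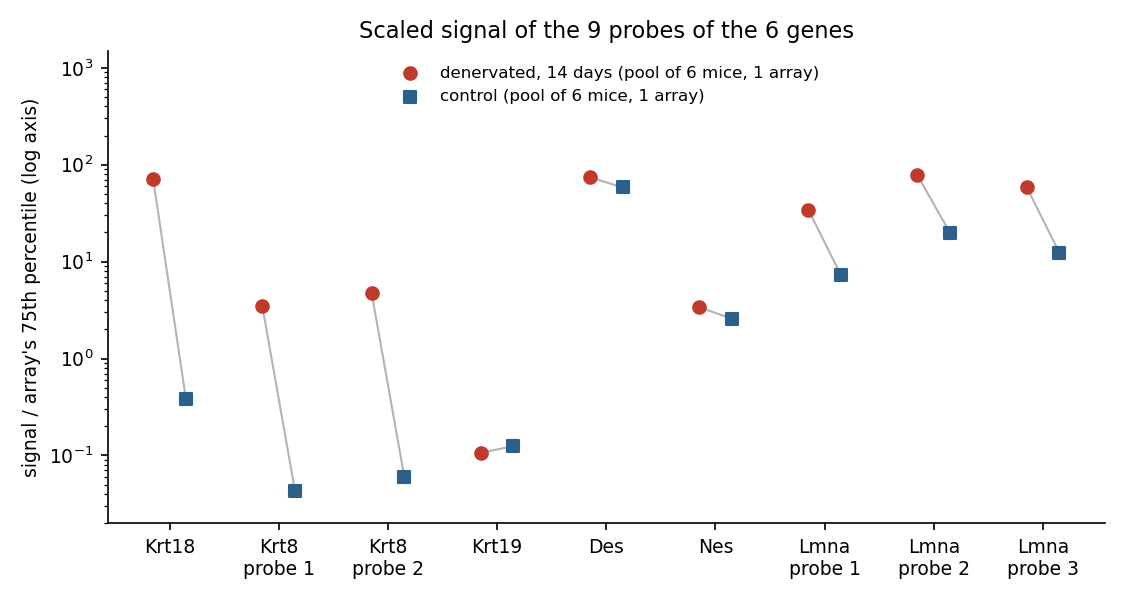
Processed signal over its array's 75th percentile (log axis, no unit) of each of the 9 probes of the 6 genes, with the denervated pool to the left of the control pool and 1 array per pool. The drop between the points is steep for Krt18 and both Krt8 probes and moderate for the 3 Lmna probes, while the points of Des, Nes and Krt19 lie close together.

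Desmin RNA was slightly higher in denervated muscle. Its probe (A_51_P335969, NM_010043, mm8 chr1:75249977-75250202, plus strand, a span of 226 bases in the files) was printed 10 times on each array. The signals of the 10 spots ran from 74411 through a median of 78021 to 84822 on the denervated array. On the control array they ran from 43590 through 46195 to 48643. Divided by each array's 75th percentile, the spots lay between 70.0 and 79.8 on the denervated array and between 55.3 and 61.7 on the control array, so the 2 sets of spots did not overlap. The difference was 0.35 ± 0.20, or 1.27-fold, and 23.7% of measured genes had a higher one. The spots share 1 RNA pool and count as 1 sample: their SD of 0.08 on the log2 scale covers printing and hybridisation only.

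Nestin RNA was likewise slightly higher. Its probe (A_51_P452323, NM_016701, mm8 chr3:88066313-88066372, plus strand) was also printed 10 times. The spots ran from 3274 through a median of 3623 to 3854 on the denervated array and from 1857 through 2020 to 2254 on the control array. After division by the 75th percentile they lay between 3.08 and 3.62 on the denervated array and between 2.36 and 2.86 on the control array, again with no overlap. The difference was 0.40 ± 0.20, or 1.32-fold, and 21.2% of measured genes had a higher one. Spot by spot, the differences ran from 0.24 to 0.53 for Des and from 0.26 to 0.47 for Nes. With no overlap between the sets these must all lie above 0, and they share 1 pool and 1 scaling value per array. The share of all probes printed 10 times whose spots separate in this way was not counted. For both genes the separation thus carries no further weight.

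**Figure D3:**
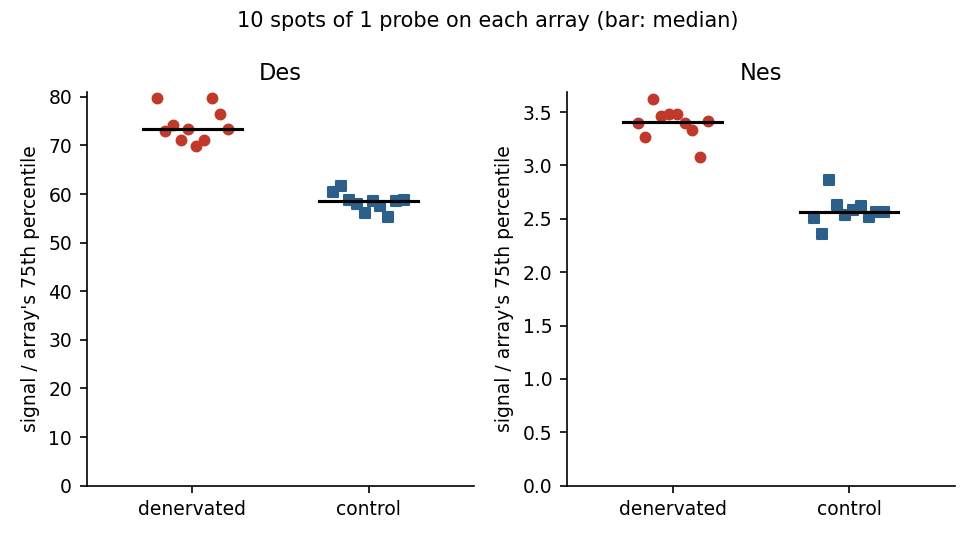
Signal of each of the 10 spots of the Des probe and of the Nes probe divided by its array's 75th percentile, denervated to the left of control, with a bar at the median. The spots of each gene form 2 separate groups, with the denervated spots above the control spots, and all 10 spots of a group come from 1 pool.

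Nestin is also made by cells other than fibres, so markers of those cells are given beside it, together with myogenic regulators. All 8 endothelial markers were measured and all 8 lay below 0 on the 75th-percentile scale. Their median was -0.51, beside -0.11 for all measured genes, and 1, Kdr (-1.12), was 2-fold or more lower. On the scale with spike-in controls, Tek (-0.34 here) and Cldn5 (-0.35 here) lie above 0 and Kdr lies within 2-fold. Summed endothelial signals were 23035 on the denervated array and 27650 on the control array. Of 9 measured Schwann cell markers, 2 were higher by 2-fold or more, the nerve growth factor receptor Ngfr (2.47, with another probe at -0.16) and the neuregulin receptor Erbb3 (1.11). The 4 that were 2-fold or more lower include the myelin gene Pmp22 (-1.55). Summed Schwann signals were 9578 on the denervated array and 11193 on the control array. Among the myogenic regulators and satellite cell markers, 4 of 9 were higher by 2-fold or more and 0 lower, with Myog at 5.34, Myod1 at 2.71 and Myf6 at 2.20. While 7 of the 9 lay above 0, the satellite cell marker Pax7 was at -0.80 and Vcam1 at -0.44. Myf5 was not well above background on either array. The 10 listed genes summed to 152431 on the denervated array and 24686 on the control array, and Myf6 alone gave 100132 and 16103 of these. The part of any of these cells in the Nes value was not tested. In whole muscle, a change in the number of cells of a type and a change in RNA per cell cannot be told apart.

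Lamin A/C RNA was 3.96-fold to 4.78-fold higher in denervated muscle by its 3 probes. The brightest (A_51_P313566, NM_019390, mm8 chr3:88569137-88569196, minus strand) had a signal of 82598 on the denervated array, against 15454 on the control array, a difference of 1.99 ± 0.20. Of measured genes, 1.63% had a higher difference. A neighbouring probe (A_52_P137765, mm8 chr3:88569267-88569326) had 62411 on the denervated array, against 9716 on the control array, a difference of 2.25. The probe whose listed span is 520 bases (A_51_P313561, mm8 chr3:88570072-88570591) had 36653 on the denervated array, against 5681 on the control array, a difference of 2.26. Lmna is active in many cell types. Macrophage markers were higher too: 6 of 7 were higher by 2-fold or more, with a median of 1.77, led by the lysosomal glycoprotein Cd68 (3.53), and their summed signals were 53230 on the denervated array and 13697 on the control array. Of 8 fibroblast markers, 1 was higher by 2-fold or more, the matrix proteoglycan Lum (1.03), and 1 lower, Clec3b (-1.04). The fibroblast median was 0.12, with unscaled sums of 242145 on the denervated array and 153952 on the control array. The part of macrophages and fibroblasts in the Lmna value was not tested.

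The other intermediate filament genes moved in both directions. Of 17 listed, 8 were measured, 3 of them higher by 2-fold or more and 2 lower by as much, with a median of 0.21, and 5 were not well above background on either array. Syncoilin (Sync), a desmin-associated filament protein of muscle, had 12755 on the denervated array, against 4239 on the control array, a difference of 1.16 ± 0.20. Synemin (Synm), which co-assembles with desmin, had 67774 on the denervated array, against 102654 on the control array, a difference of -1.03 ± 0.20, with another probe at -1.16. On the scales with spike-in controls or no scaling, which add a constant to every gene, Synm lies within 2-fold.

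Vimentin (Vim), the filament protein of mesenchymal cells and of immature muscle, had 28971 on the denervated array, against 12527 on the control array, a difference of 0.78, and 0.26 by another probe. The B-type lamins, picked out after seeing their values, were at 1.02 (Lmnb2) and -0.35 (Lmnb1), beside 1.99 for Lmna. The lens filament gene Bfsp2 was at -2.20 on a dim signal of 36.5 on the denervated array, against 125 on the control array, and its probes ranged up to -0.18. Krt7, a type II chain of simple epithelia, had 153 on the denervated array, against 28.6 on the control array, a difference of 1.98 ± 0.28. This control signal was dim, within 4 times the lowest signal counted as above background, and only 1 of the 2 Krt7 probes was measured. Krt80, another type II keratin, had 505 on the denervated array, against 18.9 on the control array, where it was not well above background. Set against that background signal it was at least 19.8-fold higher in denervated muscle, and 0.792% of all 21595 genes had such a bound of 2-fold or more in that direction.

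Across the keratin family, differences of 2-fold or more went in both directions. The array carried 45 keratin genes with 52 probes, and 22 of them were not well above background on either array. The number above background was 20 on the denervated array and 21 on the control array. Of the 18 measured on both, 4 were higher by 2-fold or more (Krt18, Krt8, Krt7 and Krt13). Another 3 were lower by as much (Krt10, Krt2 and Krt88). Among all measured genes, 6.98% were that much higher and 8.52% that much lower. Krt8, Krt7 and Krt13 had dim control signals. On the scales with spike-in controls or no scaling, Krt10 and Krt2 lie within 2-fold and Krt1 lies past 2-fold higher.

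Within the 38 keratins of stratified epithelia and hair, 13 were measured, 1 was higher by 2-fold or more and 3 were lower by as much, with a median of -0.38, or 0.017 with spike-in scaling and 0.048 with no scaling. Krt13, a keratin of internal stratified epithelia, had 95.5 on the denervated array, against 31.1 on the control array, a difference of 1.18. The epidermal keratin Krt10 had 404 on the denervated array, against 763 on the control array, a difference of -1.35, and -0.68 by another probe. Krt17 was at -0.38 and the hair keratin Krt88 at -1.64. Krt76 was above background on the denervated array only, at least 2.92-fold higher there (57.2, against 3.07 on the control array). Krt6b was above background on the control array only, at least 4.45-fold higher in the control (10.6 on the denervated array, against 59.0), and 1.51% of all genes had such a bound of 2-fold or more.

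The type II keratins stand in 1 cluster on chromosome 15, with Krt18 at its edge. By the gene order in RefSeq, 27 genes run from Krt80 to Krt18, 26 of them keratins, of which 21 have a probe here and 9 were measured. Krt80 and Krt7 stand at one end, Krt8 and Krt18 at the other, with 22 keratins between Krt7 and Krt8. Of those between, Krt76 alone had a value or bound of 2-fold or more in the direction of higher in denervated muscle, while Krt88, Krt2 and Krt6b were lower by 2-fold or more. Beyond Krt18, 9 of the next 10 genes were measured and none was past 2-fold on that scale. They ran from -0.90 for the retinoic acid receptor Rarg to 0.71 for the translation factor Eif4b, the next gene after Krt18. Spike-in scaling and no scaling add a constant to every gene. On those scales Krt1 (0.78 here) and Eif4b lie past 2-fold higher, and Krt2 (-1.12 here) lies within 2-fold. With no scaling, Tns2 (0.59 here) also lies past 2-fold higher. On the far side of Krt80, Nr4a1, an orphan nuclear receptor, was at -3.63 and Atg101, an autophagy factor, at -0.98.

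**Figure D4:**
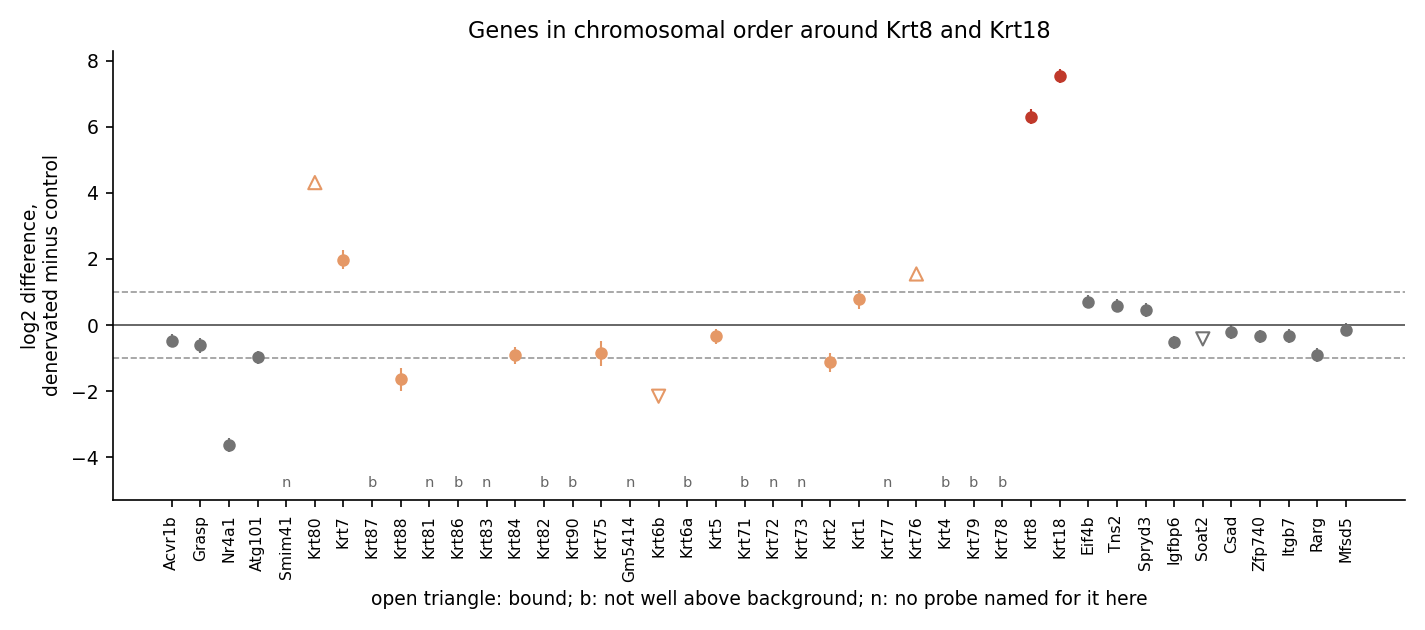
Log2 difference, denervated minus control, of the genes around Krt8 and Krt18 in their order along chromosome 15, evenly spaced, with Krt8 and Krt18 in red, other keratins in orange and other genes in grey. Bars are the technical error, dashed lines mark 2-fold, open triangles are bounds, b marks a gene not well above background and n one with no probe named for it. Krt8 and Krt18 stand at 6.31 and 7.54, and the genes beyond Krt18 lie between -0.90 and 0.71.

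Because Krt8 and Krt18 are the usual keratins of simple epithelium, markers of epithelial and mesothelial cells were read on the same arrays. Of 19 epithelial markers, 9 were measured, 2 were higher by 2-fold or more and 0 were lower, with a median of -0.35, or 0.056 with spike-in scaling and 0.087 with no scaling. Requiring 4 times the lowest detected signal gave a median of 1.62, the value of Trp63. Another 9 were not well above background on either array, including the adhesion proteins Epcam (4.2 on the denervated array and 3.3 on the control array) and Cdh1, the tight junction proteins Cldn4 and Ocln, and the epithelial regulators Esrp1, Grhl2 and Ovol1. The 2 higher genes were the transcription factor Elf3, with 166 on the denervated array, against 19.8 on the control array (2.64 ± 0.30), and Trp63, with 1446 on the denervated array, against 350 on the control array (1.62, and up to 2.61 by other probes). The basal keratin Krt5 was at -0.35 and the transcription factor Ehf at -0.70. The other measured markers were also dim and within 2-fold. They were the tight junction genes Cldn3 (-0.54) and Cldn7 (-0.26), the regulator Esrp2 (-0.55), St14 (-0.12) and Krt14 (-0.57). Cldn3 had 47.5 on the denervated array and 51.2 on the control array, and Cldn7 had 51.7 and 46.0. The 19 genes summed to 2007 on the denervated array and 778 on the control array, most of it Trp63 on the denervated side. Of 8 mesothelial markers, 6, among them Wt1, Upk3b and Lrrn4, were not well above background on either array. The surface protein Msln was at 1.42 (252 on the denervated array, against 69.8 on the control array) and Gpm6a at -1.70, and the list summed to 317 on the denervated array and 192 on the control array. Fibre markers lay below 0 in 8 of 8 on the 75th-percentile scale, with a median of -0.54, beside -0.11 for all measured genes. On the scales with spike-in controls or no scaling, Tnnt3 (-0.21 here) and Myh4 (-0.30 here) lie above 0. The unscaled signals of the fibre markers summed to 2.82e+06 on the denervated array and 2.93e+06 on the control array. The part of the markers that moved in the keratin values was not tested.

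Genes of proteins that anchor or protect intermediate filaments had, for a subset, higher RNA signals in denervated muscle. Of 22 listed genes, 19 were measured, 6 were higher by 2-fold or more and 2 lower by as much, with a median of 0.03. Genes of the small heat shock proteins, which keep other proteins from clumping, were higher by their brightest measured probes. Hspb1 had 204166 on the denervated array, against 30091 on the control array, a difference of 2.33 ± 0.20. Hspb8 had 254375 on the denervated array, against 53420 on the control array, a difference of 1.82. αB-crystallin (Cryab), a chaperone of desmin, had 247249 on the denervated array, against 52092 on the control array, a difference of 1.81, although another Cryab probe gave -0.98. Plakoglobin (Jup), which couples junctions to filaments and has been tied to desmin turnover in atrophy, had 1259 on the denervated array, against 226 on the control array, a difference of 2.04.

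Desmoplakin (Dsp), the desmosomal protein that holds keratin and desmin filaments at junctions, was above background on the control array only, at least 3.11-fold higher in the control. Its signals were dim, 8.1 on the denervated array and 41.3 on the control array, and none of its 4 probes was measured on both. Of all 21595 genes, 1.51% had such a bound of 2-fold or more. Krt222, a keratin-like gene on the same list, was at -2.10. Chosen after their values were seen, the actin crosslinker Flnc was at 1.63 and the cytolinker Macf1 at 1.14. Likewise, the dystrophin-associated Dtna was at -1.15 with its probes ranging up to 0.80. The cytolinker plectin (Plec) was at 0.07, with probes ranging up to 0.995, and dystrophin (Dmd) at -0.11, with probes from -0.42 to 0.27, both also chosen after their values were seen.

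The genes of lamin A/C partners at the nuclear envelope did not share the difference of Lmna as a group. Of 21 listed, 20 were measured, 2 were higher by 2-fold or more and 3 lower by as much, with a median of -0.10, or 0.30 with spike-in scaling and 0.33 with no scaling. Sun2, an inner nuclear membrane protein that binds lamin A and links it to the cytoskeleton, had 15664 on the denervated array, against 35367 on the control array, a difference of -1.61, and -1.68 by its other probe. Syne2 (nesprin-2), the outer membrane end of such links, had 3482 on the denervated array, against 6848 on the control array, a difference of -1.41, with probes ranging up to -0.41. Fntb, a subunit of the enzyme that farnesylates prelamin A, had 650 on the denervated array, against 184 on the control array, a difference of 1.39, and 1.82 by its other probe. Lemd2, a LEM-domain protein of the inner membrane, had 21547 on the denervated array, against 8323 on the control array, a difference of 0.94, and down to 0.42 by another probe. Named after their values were seen, nesprin-1 (Syne1) was at 1.12, with probes from -0.22 to 1.21, Tmpo at -1.03, emerin (Emd) at 0.26 and Lbr at -0.16.

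**Figure D5:**
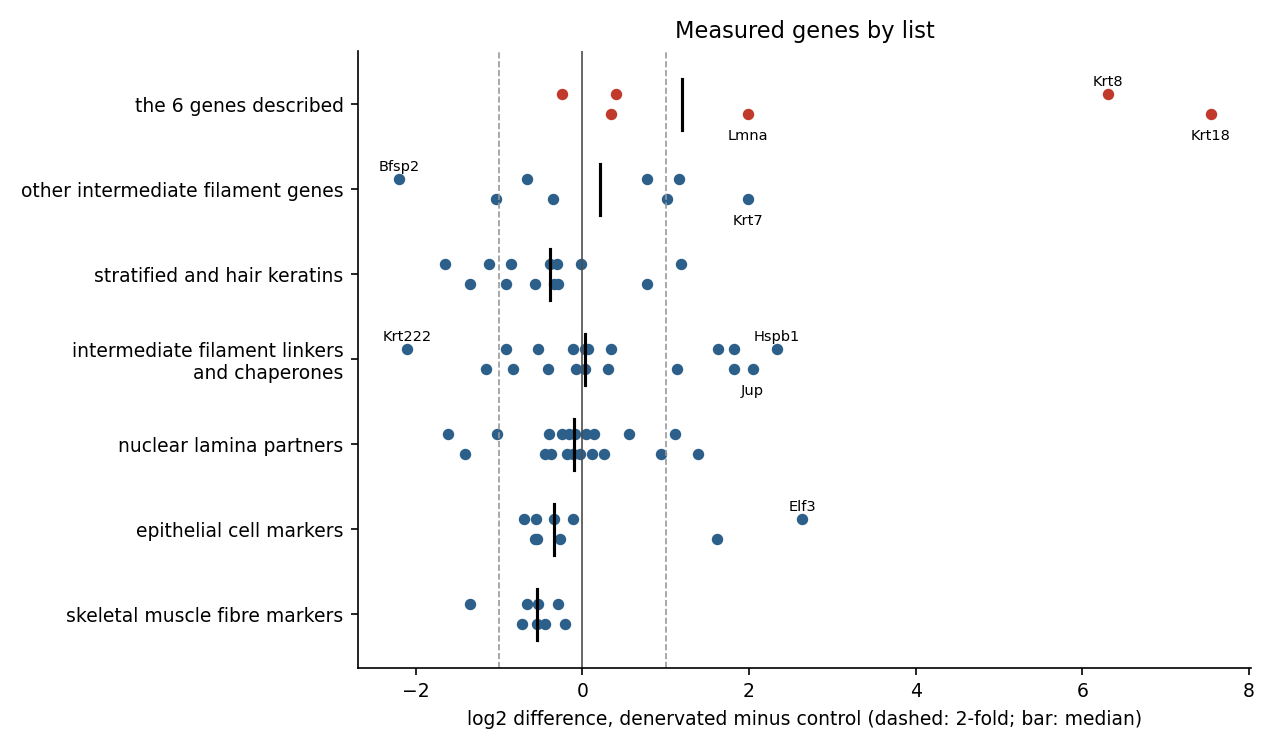
Log2 difference, denervated minus control, of every measured gene of the 6 genes and of 6 lists, 1 point per gene, with a black bar at each list's median and dashed lines at 2-fold, all scaled on each array's 75th percentile. The list medians run from -0.54 for fibre markers to 0.21 for the other intermediate filament genes, and no other measured gene in these lists lies near Krt8 and Krt18. Genes with only a bound are not drawn, among them Krt80, at least 19.8-fold higher in denervated muscle.

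With 2 arrays, the genes most like a member are those with the nearest log2 difference, a likeness over 1 value. For Krt18 they included Ces2c (7.17) and Slpi (7.02). For Krt8 they were Lman1l (6.15), the muscle ankyrin repeat gene Ankrd1 (6.56) and the transcription factor Runx1 (6.02). For Lmna they were Pimreg (1.99), Ms4a6d (1.99) and the imprinted noncoding RNA H19 (1.98). Nearest to Nes were Tnrc15, Edf1 and Mef2c, each at 0.40, nearest to Des were Yrdc (0.35), Neurl3 (0.35) and Tfap4 (0.34), and nearest to Krt19 were Hoxb9, Vamp2 and Card10, each at -0.24, where many genes crowd and the order has little meaning.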

How the data were processed

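Total RNA of gastrocnemius was measured on 1-colour Cy3 Agilent arrays, 1 per pool of 6 mice, grouped by the labels. The deposited scanner files hold intensity values from Agilent's Feature Extraction software (9.5 by the submitters' processing notes, 9.5.3.1 by the file headers), background-subtracted and detrended per the file headers, with probe positions on mm8. The deposited value table is a score: the intensity over the array's 75th percentile, times 100, rounded (100% of values within 1 unit), with column medians of 9 in the denervated and 10 in the control column, used as an alternative only.

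Here, control spots and spots marked as outliers (81 denervated, 87 control) were left out, spots of a probe were averaged, and log2 intensity was taken minus each array's 75th percentile. A gene took its brightest measured probe, and a gene above background on 1 array got a bound against the lowest signal counted as above background (17.9 denervated, 14.5 control) or the dim probe's own signal where higher. Names came from the files, updated for 23374 of 41174 probes through RefSeq accessions (GRCm38.p6 table, used for names, gene order and promoter sequences). The threshold was 2-fold. The number of arrays limits precision: with 1 per group there is no test, and ± is the software's technical error (median 0.20). Members and lists were chosen with earlier results of these data known. From each list the 3 measured genes with the largest absolute difference, the 2 brightest and any with a bound of 2-fold were eligible to be named. A few such genes are not reported here. The summaries were checked on simulated data, with known differences given only to probes brighter on the control array than Krt18, Krt8 and Krt19. The check does not cover differences from control signals as dim as theirs. Alternatives covered scaling, background (normexp, offset 50, limma 3.58.1, R 4.3.3), the deposited table, dim probes, marked spots and the choice of probe.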

Additional observations from a re-analysis of the deposited data

How the results depend on the processing

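The values of the 6 genes, the counts past 2-fold among them and among all genes, and the medians of 6 lists were recomputed under 12 alternatives. Single genes of the lists, bounds, keratin family counts and the other marker lists were not. No called value changed sign, and each of the 6 genes stayed on its side of 2-fold in every setting that gave a value. Krt8 had none when probes had to reach 4 times the lowest detected signal. With spike-in scaling (8 probes) the median of all genes moved by 0.40, and with no scaling by 0.43. Spike-in scaling and no scaling, in that order, gave 7.94 and 7.97 for Krt18, 6.71 and 6.74 for Krt8, 0.16 and 0.19 for Krt19, 0.75 and 0.78 for Des, 0.80 and 0.83 for Nes, and 2.39 and 2.42 for Lmna. The list medians became 0.62 and 0.65 for the other intermediate filament genes, 0.43 and 0.46 for linkers and chaperones, 0.30 and 0.33 for lamina partners, and 0.017 and 0.048 for stratified and hair keratins, which were at -0.17 with loess centring. Normexp background gave 7.25 for Krt18 and 4.85 for Krt8. The other intermediate filament genes had a median of -0.31 where dim probes were kept and 0.78 under the stricter filter, settings that measure other sets of genes.

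Among all genes past 2-fold, 45.0% were higher. The share was 78.0% with spike-in scaling (2254 higher, 634 lower) and 79.99% with no scaling (2386 higher, 597 lower). With dim probes kept, 2521 genes were lower. No paired analysis was possible because the labels give no replicate numbers and each group is 1 array. Dim signals limit Krt8, Krt19 and most keratins, and the difference of Krt19 is close to its technical error.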
